A study of Mus musculus with 23 samples.

Results

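The interferon-stimulated genes are a set of 50 named genes of the antiviral response, described here in juvenile mouse testis across 7 genotypes. They were taken as the probe sets of the expression array whose annotated gene symbol is on the list. Of the 50 genes, 46 had a probe set of that gene alone, out of 19661 genes on the array, and 40 of them were bright enough to be tested, out of 14746. Mx1, Dhx58, Ifit1, Ifit2, Ifit3 and Sp100 fell among the dimmest 25% of genes and are given separately. Isg15, Gbp2 and Igtp had only probe sets shared with other genes, and Ifi44 was not listed by name in the annotation, so these 4 have no value here.

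RNA came from cells of the spermatogenic lineage, isolated from testes of mice aged 14.5 days, with 4 testes pooled for each of 23 Affymetrix Mouse Gene 1.0 ST arrays. The inbred strains were PWD, a wild-derived strain of Mus musculus musculus, and B6, a laboratory strain mostly of Mus musculus domesticus origin, with 3 arrays each. They were crossed in both directions to give PWDxB6 and B6xPWD F1 hybrids (3 arrays each, mother written first), the former being known as a model of hybrid male sterility. Crosses within a subspecies were PWDxPWK (2 arrays, after the submitters left out a further array that stood apart), B6xBALB/C (6 arrays) and BALB/CxB6 (3 arrays). None of these groups carried a transgene or received an agent, as far as the labels say. Whether the pools of a genotype stem from different litters is not stated, and p-values refer to the variation among pools, which may be partly technical.

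Interferons are secreted proteins that cells release on sensing viral nucleic acid. They bind receptors on the same and neighbouring cells, activate the kinases Jak1 and Tyk2, and send transcription factors that include Stat2 and Irf9 to the nucleus, where the interferon-stimulated response element in gene promoters is bound. The genes switched on in this way encode sensors of viral RNA, factors that block viral replication, parts of the antigen presentation machinery and regulators of the response itself. Many are also transcribed at a low level without infection, and type I interferon signalling is known in Sertoli cells, Leydig cells and testicular macrophages.

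The response element gives the set a recognisable sequence. Promoter windows of 300 bases, from 250 before to 50 after the annotated start, were available from RefSeq (GRCm38.p6) for 40 of the 50 genes. Its core, GAAA followed by any 2 bases and GAAA again (TTTC, 2 bases and TTTC on the opposite strand), was found in 17 of these 40 genes (42.5%), against 3.99% of the 27025 genes with such a window. The motif TTCNNNGAA, which reads the same on both strands and is known as the gamma-activated sequence, was in 10 of the 40 (25%), against 9.55% of all genes. A match of it can share bases with a match of the core. A match describes the letters only, and does not show binding. The stretches of 60 bases below are shown because they carry the core close to the start of genes described in the results. The matches within each stretch are in capitals, each sequence is written 5′ to 3′ on its gene's strand, and these are the letters of the reference genome, not of PWD. The Ddx60 stretch is chr8:61928043-61928102 (plus strand), that of Ddx58 chr4:40239796-40239855 (minus), that of Bst2 chr8:71537562-71537621 (minus), that of Oas1a chr5:120907505-120907564 (minus), that of Irgm1 chr11:48871410-48871469 (minus) and that of Ifit1 chr19:34640779-34640838 (plus).
Ddx60: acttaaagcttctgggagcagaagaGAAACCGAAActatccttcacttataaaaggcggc
Ddx58: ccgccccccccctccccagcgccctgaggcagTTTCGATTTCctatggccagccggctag
Bst2: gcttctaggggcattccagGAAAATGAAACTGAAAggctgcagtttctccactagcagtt
Oas1a: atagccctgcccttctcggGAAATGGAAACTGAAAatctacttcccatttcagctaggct
Irgm1: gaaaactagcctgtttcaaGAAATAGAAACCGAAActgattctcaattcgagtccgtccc
Ifit1: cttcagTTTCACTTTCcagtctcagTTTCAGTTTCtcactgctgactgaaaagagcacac

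Most of these genes were more highly expressed in PWD than in B6. Of 40 tested, 25 were called higher and 2 lower, where a gene is called at an adjusted p under 0.05 (limma fitted to all genes and all arrays, Benjamini-Hochberg adjustment). Among all 14746 genes, 10.4% were called higher in PWD and 8.04% lower. The median difference of the 40 genes was 0.61 on the log2 scale, against 0.04 for all genes. All values below are the deposited log2 signals, in which a difference of 1 is a doubling, and levels of different genes cannot be compared on this scale. In pooled tissue, fewer cells of a type and less RNA per cell cannot be told apart.

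Lgals3bp, a secreted glycoprotein, differed most. Its log2 signal was 9.10, 9.08 and 9.15 in PWD and 6.32, 6.58 and 6.48 in B6. In PWDxPWK it was 9.54 and 9.37, and in B6xBALB/C it had a lowest value of 5.91, a median of 6.24 and a highest of 6.45. Every array of pure PWD and PWK descent was thus far above every array of pure B6 and BALB/C descent. PWD exceeded B6 by 2.65 (SE 0.127, adjusted p = 1.62e-12 by limma), which is 6.29-fold.

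Mx2, a GTPase of the Mx family, was next. Its values were 7.24, 7.17 and 6.41 in PWD, 7.24 and 7.28 in PWDxPWK, and 4.73, 4.76 and 5.09 in B6. The groups did not overlap, although the third PWD array lay below the other PWD arrays. The difference between PWD and B6 was 2.08 (SE 0.209, adjusted p = 2.32e-07 by limma). The B6 mean of 4.86 lies under 5.12, the level below which genes were set aside as dim, so Mx2 passed through its higher groups and the size of its differences from B6 is uncertain. The B6 mean was under that level for 3 of the 40 tested genes, Mx2, Psmb8 (5.09) and Rsad2 (4.96), and 6 had at least 1 group mean under it. That PWD array was the lowest of its group for 26 of the 40 genes. The related Mx1 on the same chromosome, 16, was dim on all arrays, with group means from 3.36 to 3.77.

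The cytosolic sensors of viral RNA were higher in PWD where they were called. Ddx58 (RIG-I) read 7.85, 7.97 and 7.70 in PWD and 6.80, 6.78 and 6.66 in B6, and exceeded B6 by 1.09 (SE 0.117, adjusted p = 6.22e-07 by limma). Ddx60, a helicase reported to assist such sensors, read 7.26, 7.31 and 7.32 in PWD and 6.30, 6.26 and 6.47 in B6, a difference of 0.96. In neither gene did the strains overlap. Ifih1 (MDA5), a sensor of long double-stranded RNA, differed by 0.34 and was not called (adjusted p = 0.0875 by limma), while the spread among B6 arrays was wide, from 6.31 to 7.08. Dhx58 (LGP2) was dim.

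Of the regulators of the response, Irf7, Irf9, Irf1 and Stat2 were all called higher in PWD. Irf7, which amplifies interferon production, read 7.23, 7.27 and 7.54 in PWD against 6.29, 6.19 and 6.40 in B6, a difference of 1.05. Irf9, a DNA-binding factor of the response, read 8.32, 8.36 and 8.10 against 7.41, 7.45 and 7.67, a difference of 0.75. Its partner Stat2 differed by 0.56 (SE 0.109). Irf1 read 8.81, 8.78 and 8.92 in PWD and 7.98, 7.39 and 7.45 in B6, but varied widely elsewhere, from 7.91 to 9.13 among the B6xBALB/C arrays. A second, dimmer probe set of Irf1 had group means of 6.14 in PWD and 5.95 in B6. Usp18, a negative regulator that cuts the ubiquitin-like Isg15 from proteins, was higher by 0.32 and just missed the threshold (adjusted p = 0.0511 by limma).

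The genes of peptide processing and presentation on MHC class I formed a compact group. Psmb8 and Psmb9 encode catalytic subunits of the immunoproteasome, and Tap1 and Tap2 the transporter that carries peptides into the endoplasmic reticulum. All 4 lie next to each other in the MHC on chromosome 17. Tap1 read 8.48, 8.28 and 8.35 in PWD and 6.53, 6.55 and 6.48 in B6, and Tap2 read 8.61, 8.33 and 8.37 against 6.52, 6.70 and 6.38. Psmb8 read 6.87, 6.34 and 6.63 against 5.29, 5.00 and 4.99, and Psmb9 read 8.37, 8.39 and 8.07 against 6.72, 6.92 and 6.74. No PWD array overlapped a B6 array in any of the 4. The differences were 1.85 for Tap1, 1.90 for Tap2, 1.52 for Psmb8 and 1.49 for Psmb9, with standard errors of 0.0911 to 0.141.

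Effectors of several kinds followed the same direction. Herc6, a ligase that attaches Isg15 in the mouse, read 7.73, 7.75 and 7.50 in PWD and 6.58, 6.24 and 6.52 in B6 (difference 1.21). Bst2 (tetherin), which holds budding virus at the cell surface, read 8.16, 7.92 and 7.99 against 6.90, 7.02 and 6.97 (1.06). Xaf1, linked to apoptosis, read 7.10, 7.40 and 7.10 against 6.00, 6.05 and 6.41 (1.04). The strains did not overlap in any of these. Adar, which edits adenosine to inosine in double-stranded RNA, read 9.07, 9.18 and 9.04 against 8.40, 8.42 and 8.48 (0.66). Gbp3, a guanylate-binding protein, read 7.07, 7.10 and 6.71 against 6.18, 6.02 and 6.55 (0.71). Trim25, the ligase that modifies RIG-I, read 8.14, 8.06 and 8.06 against 7.51, 7.24 and 7.60 (0.63). These also did not overlap between the strains.

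Smaller rises in PWD were called for Dtx3l (0.63), Uba7 (0.62), Oas1a (0.62), Parp14 (0.53), Eif2ak2 (0.49), Parp9 (0.47) and Cmpk2 (0.42). Uba7 is the activating enzyme for Isg15, Eif2ak2 the kinase PKR that stops translation, and Dtx3l and Parp9 work as a complex. Only Oas1a among them had overlapping strains. Oas1a, Gbp3, Irgm1 and the Ifit genes belong to families of very similar genes, so part of their signal may come from a relative.

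Ifi27 and Lgals9 went the other way. Ifi27, a small membrane protein, read 7.80, 7.68 and 7.56 in PWD and 8.49, 8.71 and 8.82 in B6, lower in PWD with a difference of -0.998 (SE 0.172, adjusted p = 2.62e-04 by limma). Lgals9, the lectin galectin-9, read 6.16, 6.02 and 6.01 in PWD and 6.77, 6.71 and 6.64 in B6, with a difference of -0.64. All PWD arrays were below all B6 arrays in both. The other 13 tested genes were not called, with differences from -0.30 (Samhd1) to 0.59 (Irgm1).

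The difference between the subspecies was measured again on arrays that the first comparison did not use, PWDxPWK against the mean of B6xBALB/C and BALB/CxB6. Here 27 of the 40 genes were called higher and 2 lower, against 5.83% and 5.15% of all genes. Ifi27 and Lgals9 were again the lower genes. Both comparisons called 24 genes, all in the same direction, which is 88.9% of the 27 called in the first and 82.8% of the 29 called in the second. The same share over all genes is not given here, so this overlap cannot be called particular to the set. PWD is a parent of PWDxPWK, and B6 of both other crosses, so the comparisons share strains though not arrays. Lgals3bp led again with a difference of 3.31 (SE 0.122), followed by Mx2 (2.25), Ddx60 (1.42), Herc6 (1.40) and Ddx58 (1.36). Oasl2, Usp18, Ifi35, Ifih1 and Irgm1 were called only here, and Irf1, Gbp3 and Trim25 only between the inbred strains.

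**Figure D1:**
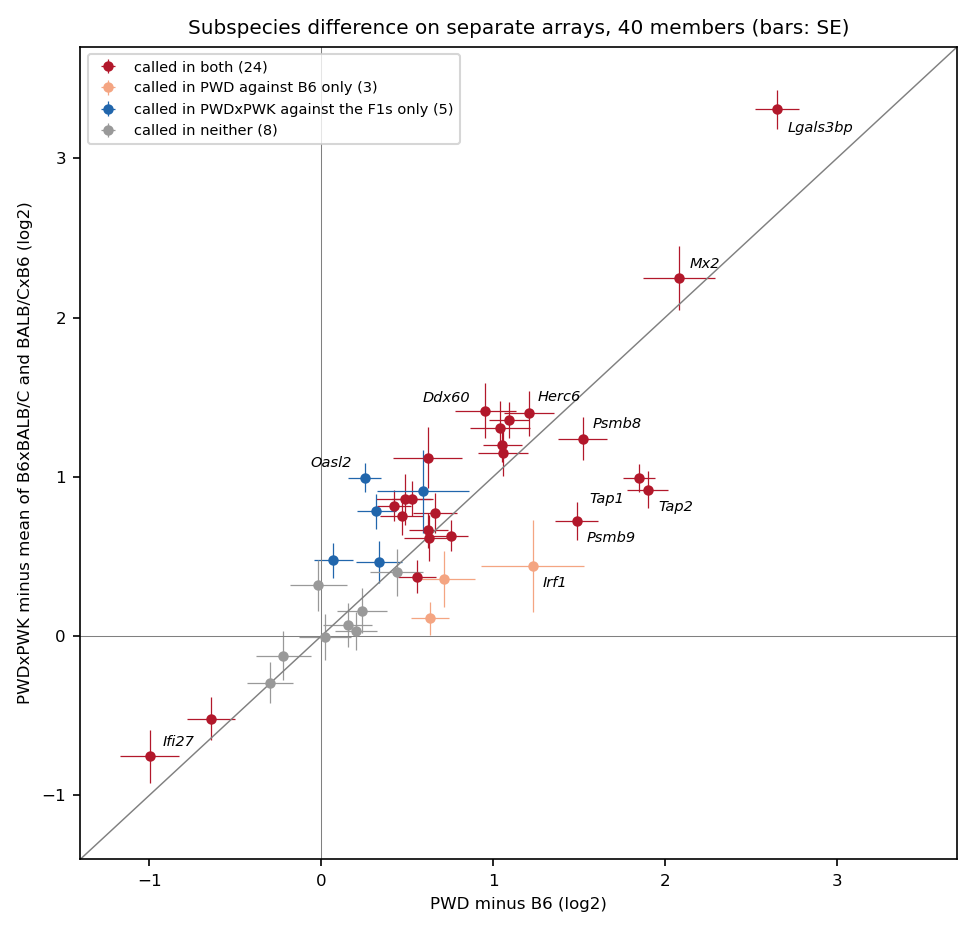
Log2 difference of PWD minus B6 (horizontal) and of PWDxPWK minus the mean of B6xBALB/C and BALB/CxB6 (vertical) for the 40 tested interferon-stimulated genes, with standard errors and a line of equality. The 24 red points were called in both, Lgals3bp and Mx2 lie farthest out, and Tap1, Tap2 and Psmb9 lie below the line.

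The sizes of the differences themselves were compared by the interaction of the contrasts. It was called for 3 of the 40 genes, against 0.061% of all genes. Tap1 and Tap2 differed more between the inbred strains than between the crosses, by 0.86 (SE 0.127, adjusted p = 0.0021 by limma) and 0.98 (SE 0.165, adjusted p = 0.0119). Oasl2 differed less between the inbred strains, by -0.74 (SE 0.135, adjusted p = 0.0262). When PWD replicate 1 or either PWDxPWK array was left out, 1 of the 3 calls was kept.

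Tap1, Tap2 and Oasl2 were also called when the B6 and BALB/C crosses were compared with B6, a comparison that shares those arrays with the interaction. Here 5 of the 40 genes were called higher and 1 lower, against 2.46% and 2.05% of all genes. Tap1 was higher by 0.75, Tap2 by 0.86, Psmb9 by 0.52, Gbp3 by 0.52 and Trim25 by 0.32, and Oasl2 was lower with a difference of -0.53. Tap1 read 7.16, 7.27 and 7.47 as lowest, median and highest in B6xBALB/C and 7.30, 7.15 and 7.29 in BALB/CxB6. All 9 of these arrays lay above the 3 B6 arrays. BALB/C itself was not measured, so levels in that strain are not known here.

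Within a subspecies, no other difference was called. PWDxPWK against PWD gave 0 of 40 genes by limma, with 6 at an unadjusted p under 0.05, and 0.00678% of all genes. B6xBALB/C against BALB/CxB6 gave 0 of 40, with 3 at an unadjusted p under 0.05, and 0.441% of all genes. The array weights, the replicate block and the use of the first 3 B6xBALB/C arrays each gave 1 in the latter.

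**Figure D2:**
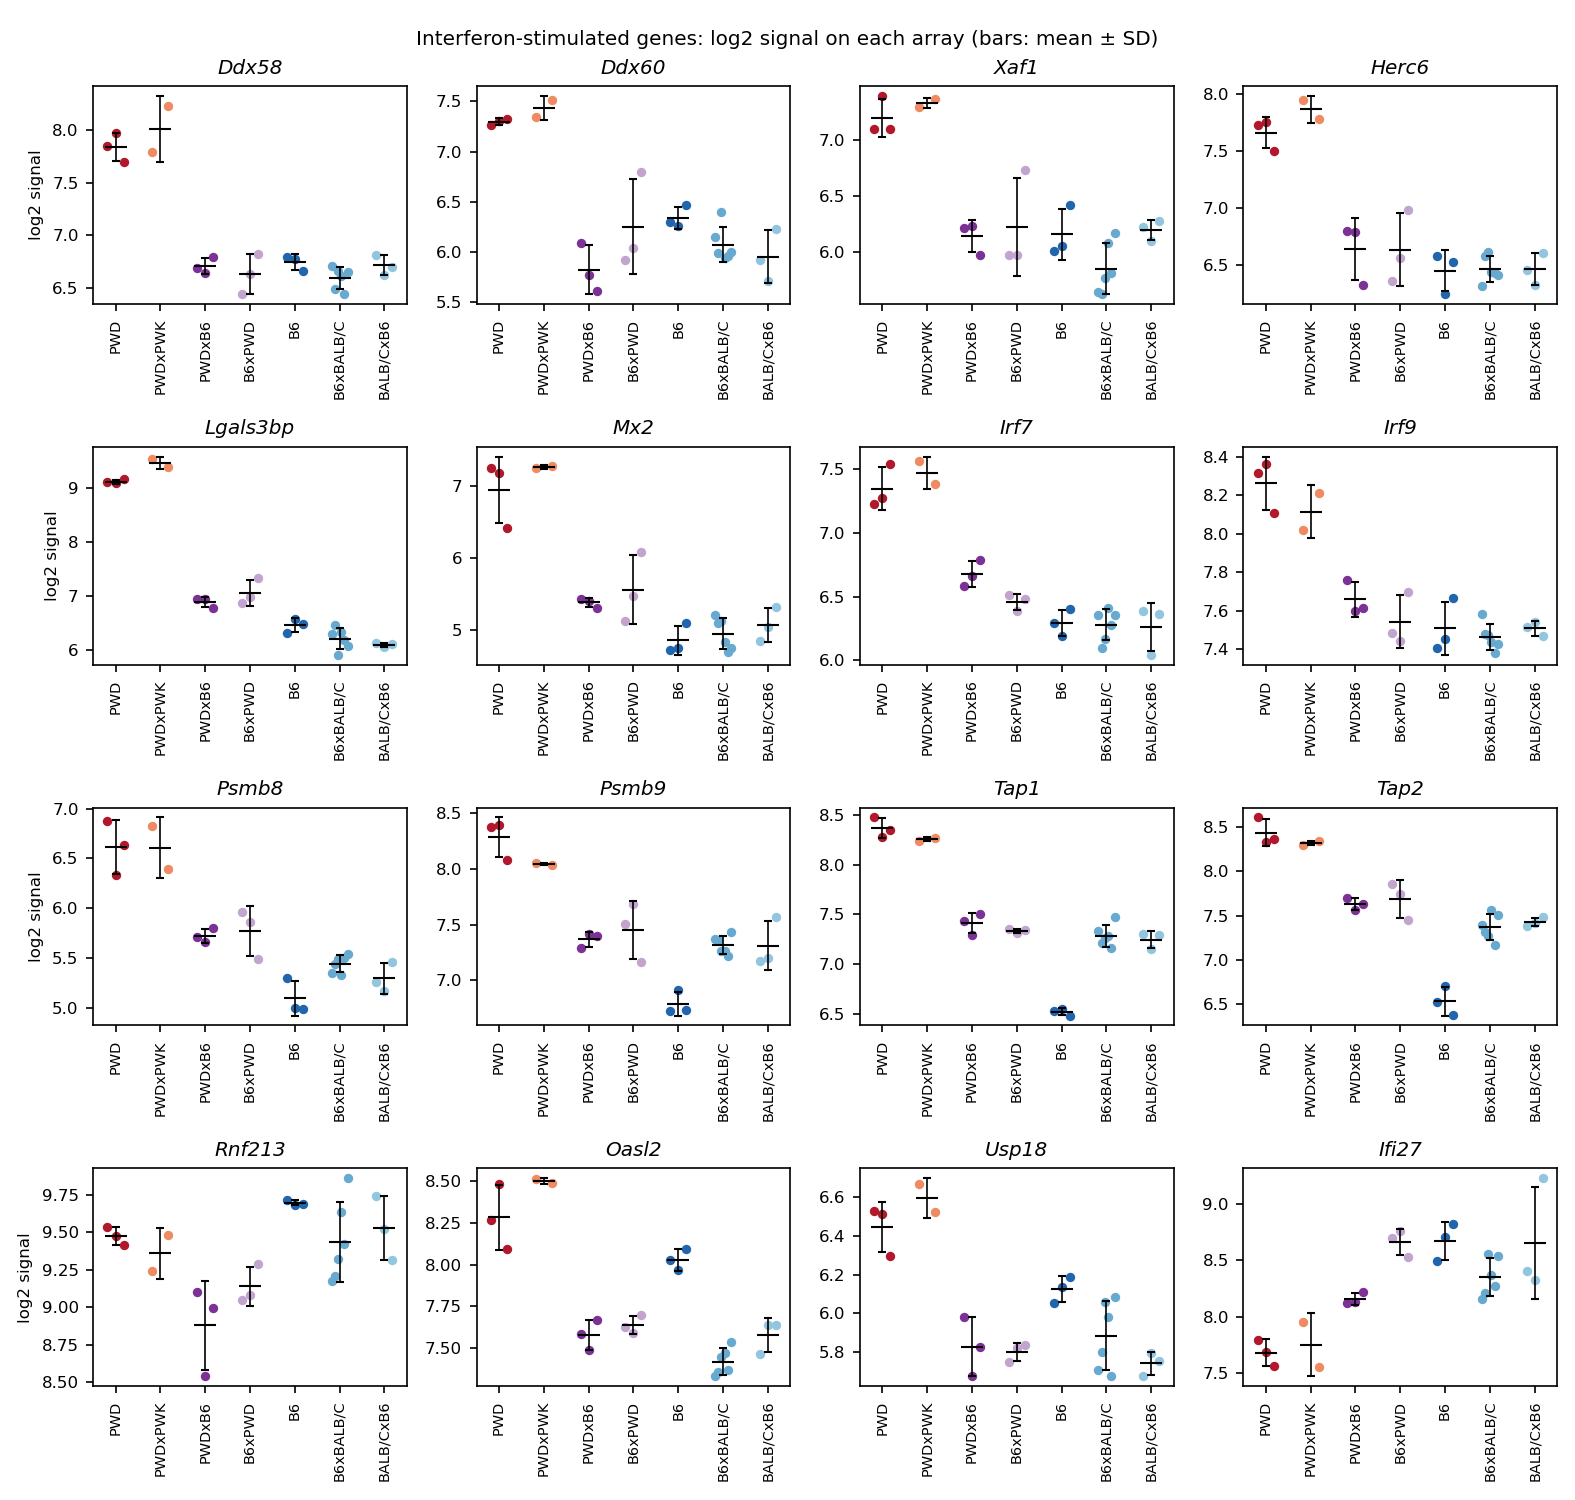
Log2 signal of 16 interferon-stimulated genes on each of the 23 arrays, by genotype, with the mean and SD of each group. The first 12 genes are higher in PWD and PWDxPWK than in B6, with the hybrids near B6 in the top row and midway for Tap1 and Tap2, and the last row shows Rnf213 and Oasl2, which were lowest or near lowest in the hybrids, with Usp18 and Ifi27.

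In F1 hybrids between PWD and B6, each of these genes, none of which is on a sex chromosome, is present as 1 copy from each strain. Their level was therefore set against the parents in 2 ways, by sorting each gene by the parent it followed, and by its distance from the mean of the parents. For the sorting, the 27 genes called between the parents were used. A gene was sorted as like B6 when the hybrid was called against PWD but not against B6, like PWD in the reverse case, and between when it was called against both parents with the hybrid in the middle. A gene that is not called against a parent is not thereby shown to equal it.

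Over all 40 genes, PWDxB6 had 22 lower than PWD and 0 higher, against 0.977% and 1.33% of all genes, and 7 higher than B6 and 2 lower, against 4.95% and 3.18%. B6xPWD had 25 lower than PWD and 1 higher, against 8.14% and 7.90% of all genes, and 7 higher than B6 and 3 lower, against 9.70% and 7.27%.

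In PWDxB6, 13 of the 27 genes were like B6, 6 were between and called against both, 7 were called against neither and 1 was like PWD. In B6xPWD the numbers were 16, 6, 3 and 2. Of all 2719 genes called between the parents, 6.91% were like B6 in PWDxB6 and 29.3% in B6xPWD, against 48.1% and 59.3% of these 27. The share like PWD ran the other way, with 28.8% and 31.0% of all genes but 3.7% and 7.41% of the 27. Of the 2719, 3.57% and 5.3% were between and called against both, compared with 22.2% of the 27 in each hybrid. Those called against neither made up 60.3% of the 2719 in PWDxB6 and 33.7% in B6xPWD. Of the 27 they made up 25.9% and 11.1%. On a scale where the B6 mean is 0 and the PWD mean is 1, the median position of the 27 genes was 0.166 in PWDxB6 and 0.153 in B6xPWD, while that of all genes called between the parents was 0.620 and 0.501. Positions of both hybrids rest on the same parental arrays.

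The genes like B6 in both hybrids numbered 11, Adar, Cmpk2, Ddx58, Ddx60, Herc6, Irf9, Parp14, Parp9, Stat2, Uba7 and Xaf1. For Cmpk2 the hybrid means of 5.06 (PWDxB6) and 5.08 (B6xPWD) lay under the level below which genes were set aside as dim. Its B6 mean of 5.13 lay just above that level, so how close Cmpk2 in the hybrids was to B6 is uncertain. Ddx58 read 6.69, 6.64 and 6.79 in PWDxB6 and 6.44, 6.63 and 6.82 in B6xPWD, and all 6 hybrid arrays lay below the 3 PWD arrays and overlapped B6. PWDxB6 was lower than PWD by a difference of -1.13 and B6xPWD by -1.21 (SE 0.117 for each), whereas the differences from B6 were -0.04 and -0.11. Xaf1 read 6.22, 6.23 and 5.97 in PWDxB6 and 5.97, 5.97 and 6.73 in B6xPWD, again under every PWD array and overlapping B6. Herc6 read 6.79, 6.79 and 6.32 in PWDxB6 and 6.36, 6.56 and 6.98 in B6xPWD, at positions of 0.153 in each hybrid.

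Irf9 read 7.76, 7.60 and 7.61 in PWDxB6 and 7.48, 7.44 and 7.70 in B6xPWD, and Adar read 8.64, 8.24 and 8.57 and then 8.33, 8.32 and 8.61. Both overlapped B6 in each hybrid and stayed below PWD on every array. Ddx60 read 6.09, 5.77 and 5.62 in PWDxB6, below all B6 arrays, and 5.92, 6.04 and 6.79 in B6xPWD, where the third array exceeded B6. Its difference from B6 in PWDxB6 was -0.52 (adjusted p = 0.0716 by limma), so it was not called there. The third B6xPWD array was the highest of its group for 19 of the 40 genes.

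The antigen presentation genes did not share this position. Psmb8, Psmb9, Tap1 and Tap2 were called against both parents in both hybrids, with positions from 0.387 to 0.605. Values of PWDxB6 are given before those of B6xPWD. Tap1 read 7.44, 7.30 and 7.50 in PWDxB6 and 7.36, 7.32 and 7.34 in B6xPWD, clear of every array of either parent. Tap2 read 7.70, 7.56 and 7.63 and then 7.86, 7.74 and 7.45, also clear of both. Psmb8 read 5.71, 5.66 and 5.80 and then 5.96, 5.86 and 5.49, and Psmb9 read 7.29, 7.42 and 7.40 and then 7.50, 7.68 and 7.17. The 5 genes between the parents in both hybrids were these 4 and Lgals3bp.

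Lgals3bp lay nearer to B6. It read 6.95, 6.94 and 6.78 in PWDxB6 and 6.86, 6.97 and 7.33 in B6xPWD, above every B6 array and far under every PWD array. Its positions were 0.162 (SE 0.0443) and 0.224 (SE 0.0434). Mx2 read 5.44, 5.41 and 5.31 in PWDxB6, at 0.253, and 5.13, 5.48 and 6.08 in B6xPWD, at 0.337. All hybrid arrays of Mx2 were above B6 and below PWD, and the difference from B6 was called in B6xPWD (0.70) but not in PWDxB6 (0.53, adjusted p = 0.121 by limma).

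Some genes were sorted differently in the reciprocal hybrids. Bst2 read 7.08, 7.52 and 7.22 in PWDxB6, sorted as like B6, and 7.88, 7.79 and 7.29 in B6xPWD, sorted as like PWD. Trim25 read 7.76, 7.77 and 7.89 and then 7.69, 7.64 and 7.77, like PWD in PWDxB6 and like B6 in B6xPWD. Ifi27 read 8.12, 8.13 and 8.22 in PWDxB6, midway between the parents, and 8.70, 8.76 and 8.53 in B6xPWD, within the range of B6. Lgals9 read 6.35, 6.31 and 6.33 and then 6.17, 6.18 and 6.25, under every B6 array and above every PWD array in both hybrids. Irf7, at 6.58, 6.66 and 6.78 and then 6.51, 6.39 and 6.48, was between the parents in PWDxB6 and like B6 in B6xPWD.

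The direct comparison of the hybrids did not separate them for any of these genes. PWDxB6 against B6xPWD gave 0 of 40 calls by limma, with 5 genes at an unadjusted p under 0.05, against 2.83% of all genes called. The largest differences were in Ifi27 (-0.51, adjusted p = 0.0987) and Oas2 (0.43, adjusted p = 0.146), and Ifi27 was the only one of the 5 whose arrays did not overlap. With array weights, 10 of the 40 genes (25%) were called, against 31.4% of all genes. Leaving out B6xPWD replicate 1, B6xPWD replicate 3 or BALB/CxB6 replicate 3 gave 1 call.

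**Figure D3:**
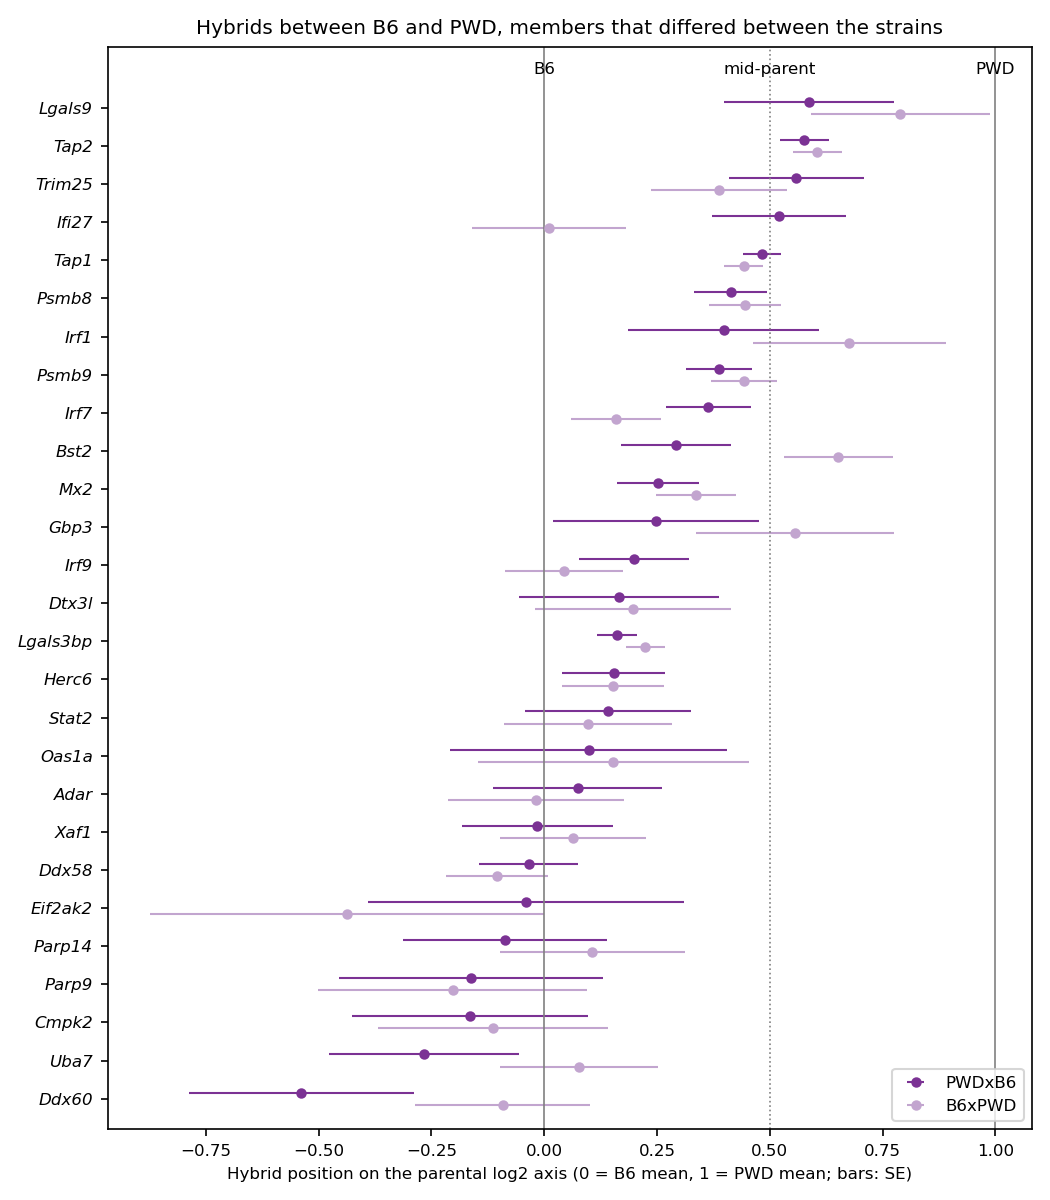
Position of each hybrid between the parental means for the 27 interferon-stimulated genes called between PWD and B6, where 0 is the B6 mean and 1 the PWD mean, with standard errors. Most points lie left of the mid-parent line at 0.5 (23 in PWDxB6 and 22 in B6xPWD), and Tap1, Tap2, Psmb8 and Psmb9 lie close to it. Of all genes called between the parents, 33.6% in PWDxB6 and 49.6% in B6xPWD lie left of 0.5.

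Set against the mean of the parents, the hybrids were low for these genes. PWDxB6 had 7 of the 40 genes called lower and 0 higher, against 0.163% and 0.509% of all genes, and 34 of the 40 differences were negative. B6xPWD had 14 called lower and 1 higher, against 6.69% and 7.79% of all genes, and 33 were negative. Differences were positive for 6 of the 40 in PWDxB6 and 7 in B6xPWD, against 53.0% and 44.9% of all genes. The median difference was -0.21 in PWDxB6 and -0.22 in B6xPWD, against 0.01 and -0.03 for all genes. Both comparisons use the same 6 parental arrays, so their values are given side by side. The counts depend on single arrays. PWDxB6 kept 3 calls without its replicate 2, and B6xPWD had 4 without its replicate 2, 5 without its replicate 1, 7 without PWD replicate 2, 8 without PWD replicate 1 and 8 without B6 replicate 1. Calls over all genes fell as well. Without its replicate 2, PWDxB6 went from 75 higher and 24 lower to 23 and 7. Without its replicate 2, B6xPWD went from 1148 and 987 to 249 and 140.

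Ddx60, Ddx58 and Lgals3bp were called in both hybrids. Ddx60 departed by -0.99 (SE 0.153, adjusted p = 8.02e-04 by limma) in PWDxB6 and by -0.57 (adjusted p = 0.019) in B6xPWD. Ddx58 departed by -0.58 and -0.66 (SE 0.101 for each), and Lgals3bp by -0.90 and -0.73. A departure of this kind in a gene that differs between the parents is the same fact as its position near B6. Uba7 (-0.48) was called in PWDxB6 alone. Eif2ak2 (-0.46), Xaf1 (-0.45), Herc6 (-0.42), Irf7 (-0.36), Irf9 (-0.34), Adar (-0.34), Parp9 (-0.33), Cmpk2 (-0.26) and the higher Ifi27 (0.49) were called in B6xPWD alone. The call of Cmpk2, near the level of dim genes, was lost in 23 of 36 alternatives. Other calls in B6xPWD alone were lost as well, Xaf1 in 19 of 36, Parp9 in 15 of 36, Adar in 11 of 37 and Eif2ak2 in 10 of 37. Ifi27 was lost in 7 of 37, Herc6 in 6, Irf9 in 3 and Irf7 in 1. The departures of the 2 hybrids were not called different from each other for any gene, as the direct comparison above gives that test.

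Oasl2, Rnf213 and Usp18 were called in both hybrids without being called between the parents. The calls were not equally firm. Those of Oasl2 were lost in 0 of 37 alternatives. The call of Rnf213 was lost in 2 of 37 in PWDxB6 and 7 of 37 in B6xPWD, and that of Usp18 in 7 of 36 and 0 of 36. Oasl2, a 2′-5′-oligoadenylate synthetase-like protein, read 8.27, 8.48 and 8.10 in PWD and 8.02, 7.96 and 8.10 in B6. In the hybrids it read 7.59, 7.49 and 7.67 in PWDxB6 and 7.63, 7.59 and 7.70 in B6xPWD, below every array of both parents. PWDxB6 was lower than PWD by a difference of -0.70 and lower than B6 by -0.45, and B6xPWD by -0.64 and -0.39, with adjusted p from 1.17e-04 to 0.0096 (limma). The B6 and BALB/C crosses were low too, with a lowest value of 7.33, a median of 7.41 and a highest of 7.54 in B6xBALB/C. High Oasl2 was thus found in PWD, B6 and PWDxPWK, and low Oasl2 in all 4 crosses that had a B6 parent.

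Rnf213, a large ubiquitin ligase, read 9.54, 9.48 and 9.42 in PWD and 9.71, 9.68 and 9.69 in B6. It read 9.10, 8.54 and 8.995 in PWDxB6 and 9.05, 9.08 and 9.29 in B6xPWD, again below every parental array. In PWDxB6 it was called lower than PWD (-0.60) and than B6 (-0.82), and in B6xPWD it was called lower than B6 (-0.56) but not than PWD (-0.34, adjusted p = 0.139 by limma). A second probe set gave group means of 9.63 in PWD, 9.62 in B6, 8.89 in PWDxB6 and 9.09 in B6xPWD. Usp18 had group means of 6.45 in PWD, 6.12 in B6, 5.83 in PWDxB6 and 5.80 in B6xPWD. It was called lower than PWD in each hybrid, with differences of -0.62 and -0.65, and not than B6. Usp18 was as low in the B6 and BALB/C crosses, with means of 5.88 in B6xBALB/C and 5.74 in BALB/CxB6.

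**Figure D4:**
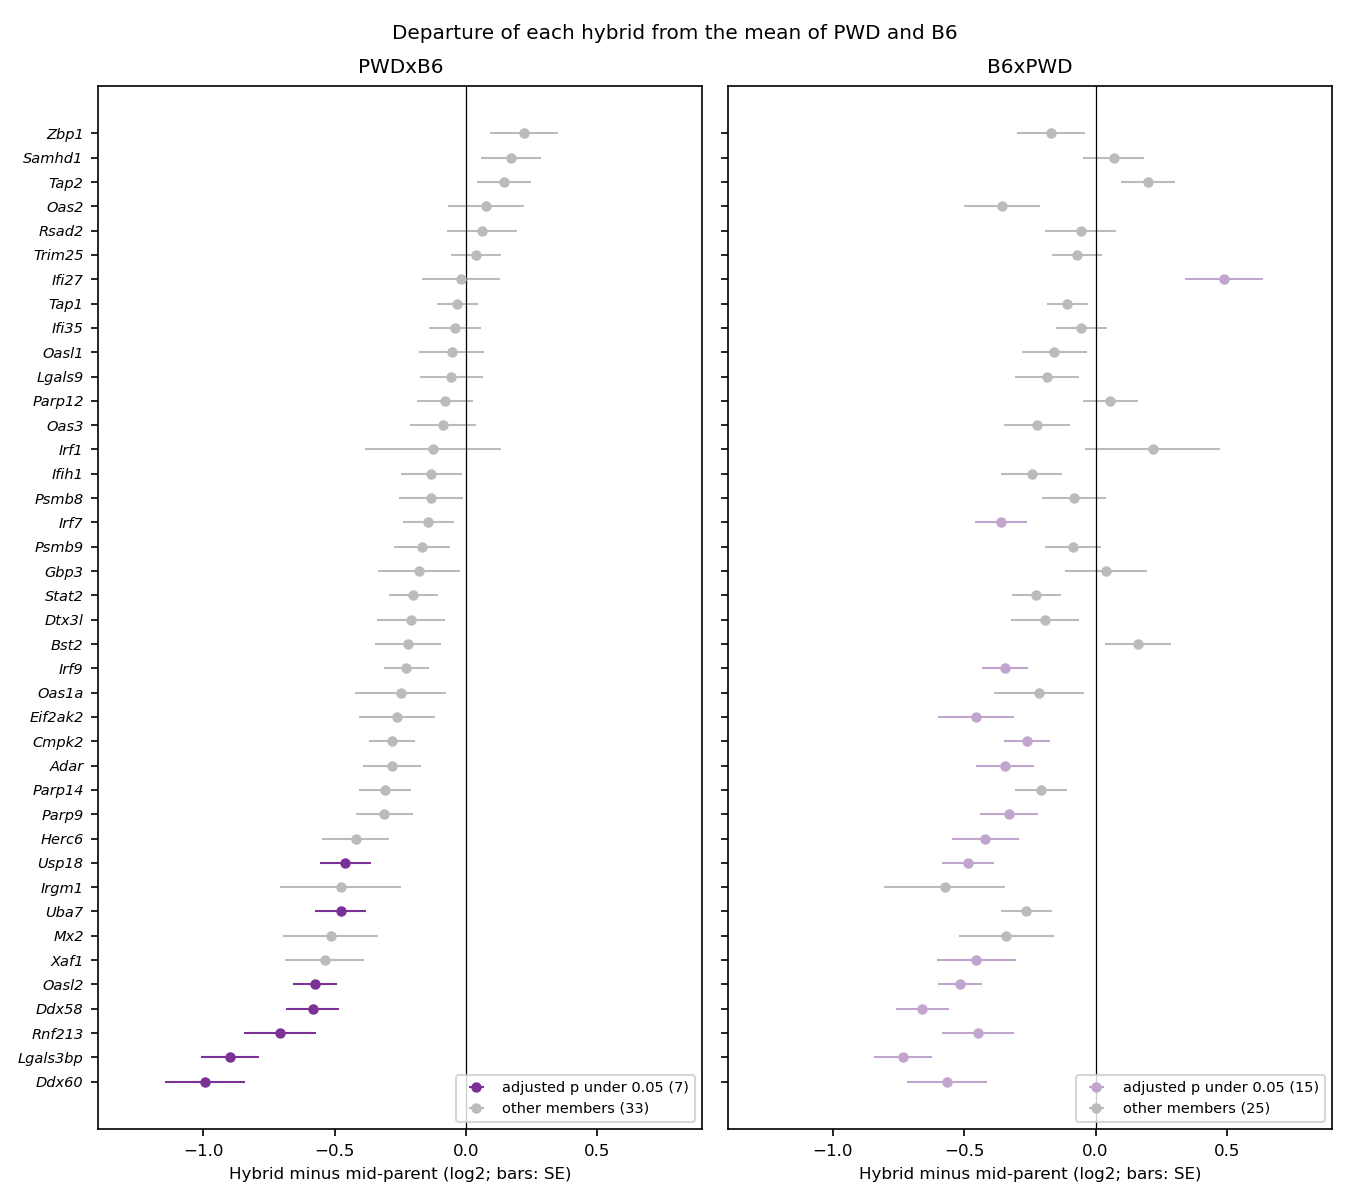
Log2 difference of each hybrid from the mean of PWD and B6 for the 40 tested interferon-stimulated genes, in 1 order for both panels, with standard errors. Coloured points were called (7 in PWDxB6, 15 in B6xPWD), and nearly all of them lie left of 0, with Ifi27 in B6xPWD on the right.

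The departures were also taken from other references, of which only the first shares no parental array. With the mean of PWDxPWK and the B6 and BALB/C crosses in place of the parents, 11 genes were called in PWDxB6 and 10 in B6xPWD, all of them lower, against 0.882% and 1.91% of all genes in either direction. Of these, 5 and 8 were also called against the parents. Rnf213 was called in neither hybrid with this reference, and Usp18 in B6xPWD alone. Ddx58 departed by -0.62 and -0.70, and Lgals3bp by -0.91 and -0.75. Tap1, which was not called against the parents, was now called with differences of -0.35 and -0.42. The B6 and BALB/C crosses, part of this reference, lay above B6 in Tap1. With the parental mean taken on the linear scale, 8 genes in PWDxB6 and 17 in B6xPWD were called, all lower. Over all genes, 0.549% and 14.7% were called in either direction. Ifi27 was no longer called in B6xPWD (0.40, adjusted p = 0.0728 by limma).

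Ifit1, a protein that binds foreign 5′ ends of RNA, was chosen among the 6 dim genes after its values were seen. It was tested only when no filter on dim genes was used. It read 5.41, 5.43 and 5.45 in PWD and 5.96 and 5.74 in PWDxPWK, and 4.64, 4.90 and 4.64 in B6. The hybrids read 4.45, 4.18 and 4.12 in PWDxB6 and 4.44, 4.08 and 4.62 in B6xPWD, below every array of both parents. It was called higher in PWD than in B6 (0.70, adjusted p = 0.0015 by limma) and lower than the parental mean in PWDxB6 (-0.82) and in B6xPWD (-0.69). In that fit, 1459 of 19661 genes were called higher in PWD than in B6, and 921 higher in PWDxPWK than in the B6 and BALB/C crosses. Lower than the parental mean were 23 genes in PWDxB6 and 785 in B6xPWD. The B6 and hybrid values of Ifit1 all lie under 5.12, so the size of its differences is uncertain. Ifit1 was low in the B6 and BALB/C crosses too, with means of 4.19 in B6xBALB/C and 4.52 in BALB/CxB6. Ifit3 was called higher in PWDxPWK than in the B6 and BALB/C crosses (0.72). Mx1, Dhx58, Ifit2 and Sp100 were called in none of these 4 comparisons.

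The promoter sequences were set against the sorting. The response element core was present in 4 of the 10 genes like B6 in PWDxB6 that had a promoter window, and in 4 of 13 in B6xPWD. It was present in 0 of the 5 and 0 of the 4 genes between the parents and called against both, which include Psmb8, Psmb9 and Tap1. Among genes called against neither parent it was in 4 of 6 and 2 of 3, and among those like PWD in 0 of 1 and 2 of 2. These counts are small and no class was tested against another. Tap2 and Mx2 had no window in the table. The windows of Psmb9 and Tap1 overlap on opposite strands, so they are not separate sequences. These numbers are a description and no test was made.

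Other parts of the interferon pathway were examined from lists of genes outside the 50. Of 14 interferon genes on the array, 5 were bright enough to be tested. Ifna5 was called higher in PWD than in B6 (0.42, adjusted p = 0.0363 by limma) and Ifna2 lower than the parental mean in B6xPWD (-0.49). The Ifna genes are close copies of each other, so which of them gave the signal is uncertain. The mean log2 signal of all 14 stayed between 4.72 and 4.88 in every genotype.

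Receptors and signalling genes did not share the higher level in PWD. Of 27 tested, 2 were called higher in PWD than in B6 and 7 lower, against 10.4% and 8.04% of all genes. Il10rb, a receptor chain for interferon lambda, was lower with a difference of -1.66 (SE 0.139, adjusted p = 1.23e-08 by limma). Tlr3, an endosomal sensor of double-stranded RNA, was lower (-1.03), as was Ifngr1, a chain of the interferon gamma receptor (-0.74). Myd88 (-0.70), Irf3 (-0.55), Ifnar2 (-0.43) and Tbk1 (-0.38) were also lower, and Stat3 (0.41) and Tyk2 (0.40) were higher. Il10rb, Tlr3 and Ifngr1 were called lower in PWDxPWK against the B6 and BALB/C crosses too, as were 5.15% of all genes. Against the parental mean, 0 of the 27 were called in PWDxB6 and Stat3 was called lower in B6xPWD (-0.32).

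Of 32 other interferon-induced genes tested, 8 were called higher in PWD than in B6 and 2 lower, against 10.4% and 8.04% of all genes. Rtp4, a receptor-transporting protein, was higher by 1.28 (SE 0.145, adjusted p = 1.51e-06 by limma) and Ifitm3, which blocks viral entry, by 0.73. Rnf31 (0.54), Trim21 (0.49) and Ifi30 (0.53) were also higher, and Gbp7 was lower (-1.02). PWDxPWK against the B6 and BALB/C crosses called 9 higher and 1 lower, against 5.83% and 5.15% of all genes. Rtp4 differed by 1.86 there and Gbp7 by -1.16. Against the parental mean, Rtp4 (-0.57) and Ifitm3 (-0.61) were lower in PWDxB6. In B6xPWD, Ifitm3, Apobec3, Mov10, Nlrc5, Pml and Znfx1 were lower and Ogfr was higher. Over all genes, 0.163% were called lower in PWDxB6, and 6.69% lower and 7.79% higher in B6xPWD.

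Markers of cell types were read on the same arrays. All 12 germ cell markers were tested, and their mean log2 signal lay between 9.51 and 10.1 in the genotypes. Sertoli cell markers were present as well, with group means from 9.45 to 9.74, so the preparations contained somatic RNA. Of 11 macrophage markers tested, 0 were higher and 5 were lower in PWD than in B6, against 10.4% and 8.04% of all genes. The 5 were Mrc1 (-1.15), C1qb (-0.85), Lyz2 (-0.71), Csf1r (-0.58) and Cx3cr1 (-0.48). The mean of the 15 macrophage markers on the array ran from 5.43 to 5.53 on PWD arrays and from 5.73 to 5.98 on B6 arrays, the opposite direction to most interferon-stimulated genes. In every other genotype the group mean lay between 5.45 (BALB/CxB6) and 5.58 (PWDxB6), against 5.86 in B6. The B6 and BALB/C crosses against B6 also had 0 macrophage markers higher and 5 lower, against 2.46% and 2.05% of all genes. Of 10 lymphocyte markers only 3 were bright enough to be tested, with 1 lower in PWD. PWDxPWK against the B6 and BALB/C crosses had 1 macrophage marker lower, against 5.15% of all genes. Neither PWD against B6 nor this comparison called a Sertoli, stromal or endothelial marker. Other markers did differ between PWD and B6. Of 12 germ cell markers 2 were higher and 3 lower in PWD, and of 11 pachytene and 4 Leydig cell markers 1 each was lower. The mean of the 12 pachytene markers on the array ran from 6.35 to 6.44 on PWD arrays and from 7.02 to 7.36 on B6 arrays, and that of the 5 Leydig cell markers on the array from 6.06 to 6.32 and from 6.46 to 6.77, without overlap. The part of these cells in the strain difference was not tested.

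Marker levels did move with B6xPWD. Against the parental mean, 5 of 12 germ cell and 3 of 11 pachytene markers were higher in B6xPWD, and 3 of 9 Sertoli, 4 of 9 stromal, 4 of 9 endothelial and 1 of 4 Leydig cell markers were lower. Over all genes, 7.79% were higher and 6.69% lower in B6xPWD, and 0.509% and 0.163% in PWDxB6. In PWDxB6, 1 of 12 germ cell markers was higher and 0 of the others were called, with 7 of the interferon-stimulated genes lower. The mean of the 9 endothelial markers ran from 5.77 to 6.28 on B6xPWD arrays and from 5.89 to 6.38 on PWDxB6 arrays, against 6.28 to 6.38 in PWD and 6.37 to 6.65 in B6. The part of these cell types in the hybrid result was not tested.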

How the data were processed

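The authors deposited 1 log2 signal for each of 25690 probe sets and 23 arrays, from biotin-labelled RNA, per the labels. The values run from 1.17 to 13.96, and from this their scale was read as log2. How the background was corrected and the arrays normalized is not given in the sources used here, and no scanner files were analysed, so signal over background was not judged for single probes. Array medians ran from 6.13 to 6.28. The number of arrays limits the precision.

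Gene symbols came from GEO's annotation of the platform, which gave 20777 probe sets 1 symbol, 232 several and 4681 none, and 20696 Entrez IDs were found in RefSeq's GRCm38.p6 table. For 564 genes with more than 1 probe set, that with the highest mean was used. Genes in the dimmest 25% by mean (log2 under 5.12) were left out. Sequence differences of PWD under the probes were not examined.

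A model of 7 genotype means was fitted to all arrays with limma 3.58.1 in R 4.3.3 (16 residual degrees of freedom, moderated variances, no trend), and tested on simulated data. Adjustment was over all tested genes. The genes and lists were chosen with earlier results of these data known. Values are named for genes called between PWD and B6, between the hybrids or against the parental mean, with values of every array for the 20 largest differences. Oasl2 and Ifit1 were added after their values were seen. From the pathway lists, the members with the smallest p are named. Alternatives were the dim-gene filter, quantile and median scaling, the probe set rule, variance settings, array weights, the replicate block, fits of the compared groups only, each array left out, and other hybrid references.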

Additional observations from a re-analysis of the deposited data

Results flagged for a closer look

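The size of the difference between the subspecies depended on the pair of genotypes compared for 3 genes. Tap1 and Tap2 differed by 0.858 and 0.981 more (log2) between PWD and B6 than between PWDxPWK and the B6 and BALB/C crosses, and Oasl2 by -0.743, each called by the interaction term in limma. In Tap1 and Tap2 the 9 arrays of B6 and BALB/C crosses lay above the 3 B6 arrays, and in Oasl2 they lay below them.

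Uba7 in B6xBALB/C had a lowest array, replicate 3, at 5.80, set apart from the nearest other array at 5.97. It was the only such value among 46 genes in B6xBALB/C. Chance gives about 1 in 20, so 1 such value is not unusual.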

How the results depend on the processing

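For PWD against B6, PWDxPWK against the B6 and BALB/C crosses, both hybrids against the parental mean and the interaction, 0 calls changed direction under the alternatives run. The direction of single calls was not followed for the other comparisons, Ifit1 or the pathway and marker lists. Of the calls, 24 of 27 for PWD against B6, 21 of 29 for PWDxPWK against the B6 and BALB/C crosses, 3 of 7 for PWDxB6 against the parental mean and 4 of 15 for B6xPWD against it were kept under every alternative that tested the gene. With the dimmest 50% of genes left out, 22 of the interferon-stimulated genes were tested. Then 16 were called for PWD against B6, 16 for PWDxPWK against the crosses, 4 for PWDxB6 against the parental mean, 13 for PWDxB6 against PWD and 15 for B6xPWD against PWD, and 6 were like B6 in PWDxB6 and 9 in B6xPWD, fewer because fewer genes were tested. With the crosses within a subspecies as reference, 11 were called in PWDxB6. Array weights gave 23 for B6xPWD against the parental mean, 10 for PWDxB6 against B6xPWD and 1 for B6xBALB/C against BALB/CxB6. Calls rose over all genes too, to 40.5% and 31.4% in the first pair, and the cause was not tested. B6xBALB/C replicates 1 to 3 alone gave 1 in the last comparison.

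Leaving out each array in turn gave 24 to 30 calls for PWD against B6, 24 to 29 for PWDxPWK against the crosses, 3 to 8 for PWDxB6 and 4 to 15 for B6xPWD against the parental mean, 0 to 1 between the hybrids, 18 to 23 for PWDxB6 and 22 to 26 for B6xPWD against PWD, 6 to 10 and 7 to 12 against B6, 4 to 7 for the B6 and BALB/C crosses against B6, and 1 to 3 for the interaction. It gave 10 to 15 genes like B6 in PWDxB6 and 12 to 18 in B6xPWD. Fits with the replicate number as a block gave 30, 29, 8 and 17 calls in the first 4 comparisons, 0 between the hybrids and 1 between the B6 and BALB/C crosses. Calls over all genes rose in these fits too, from 1533 higher and 1186 lower to 1780 and 1500 for PWD against B6. For B6xPWD against the parental mean they rose from 1148 and 987 to 1601 and 1322. Arrays of the same number did not deviate together (median correlation 0.01 over 57 pairs), so the numbers were not taken to pair the arrays.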
